A study of Mus musculus with 4 samples.

Results

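Keratin-associated protein genes were examined in the mouse ES cell line E14tg2a after depletion of Rif1, a chromatin protein that regulates DNA replication timing. The members were all array probes whose gene symbol starts with Krtap, together with the keratin gene Krt23 and the predicted genes Gm11554, Gm11564 and Gm11595. They comprised 70 probes for 56 genes, out of 39429 probes for 30199 gene names on the array. The 4 genes without the Krtap symbol were selected on their measured differences between Rif1 siRNA and control siRNA on these arrays, so these differences are a description with no test.

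Cy3-labeled RNA was read on 4 one-color arrays. One array held untreated cells (0 h), another held cells given a control siRNA and taken at 72 h, and the remaining pair held cells given a mixture of Rif1 siRNAs (mRif1#2 plus NC#1) and taken at 48 h or at 72 h. All cells were grown without feeder cells on gelatin in serum with LIF. Each condition had 1 array, so the differences come without a replicate, a test or a p-value, and precision is limited by that number of arrays. The level of a probe is its processed signal divided by the 75th percentile of the signals on its array, and differences are log2 ratios of levels on the same probe. Levels of different probes are not comparable with each other.

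Keratin-associated proteins are small proteins of the hair shaft. In the hair follicle they are made late in differentiation and fill the space between keratin filaments, to which they are joined by disulfide bonds. One class is rich in cysteine, and another is rich in glycine and tyrosine. Their genes are short, mostly lack introns and lie in a few tandem clusters of closely related copies. Krt23 encodes an epithelial type I keratin, which forms filaments and is not a keratin-associated protein.

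The arrays read these genes through 60-base probes, and the sequence of a probe bears on what it can measure because the coding repeats of the family resemble each other. Probes with such frames are shown for genes that were higher at both times and, for comparison, for Krtap4-8, Krtap5-1 and Krtap19-4, which were not. The Krtap5-5 probe A_55_P2060011 also holds such a frame and is not shown. Its log2 difference from control siRNA was -0.14 at 72 h and -0.09 at 48 h. The Gm11554 and Krt23 probes hold no such frame and are not shown. The sequences are written in the sense of the transcript, and capitals mark the cysteine codons of the open reading frame (for Krtap19-4, the glycine and tyrosine codons).

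Gm11595, A_55_P1963573: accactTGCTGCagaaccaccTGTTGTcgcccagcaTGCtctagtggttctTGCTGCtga
Gm11595, A_55_P1963576: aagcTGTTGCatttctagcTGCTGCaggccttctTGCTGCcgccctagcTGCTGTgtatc
Gm11564, A_55_P2026639: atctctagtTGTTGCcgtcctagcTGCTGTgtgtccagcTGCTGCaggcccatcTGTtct
Krtap4-16, A_55_P2158067: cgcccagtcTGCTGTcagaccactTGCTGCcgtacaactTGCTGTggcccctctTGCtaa
Krtap4-8, A_55_P2047778: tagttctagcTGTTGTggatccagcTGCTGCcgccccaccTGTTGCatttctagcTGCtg
Krtap5-5, A_55_P2098150: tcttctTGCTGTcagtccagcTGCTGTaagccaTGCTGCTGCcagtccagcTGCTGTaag
Krtap5-5, A_55_P1985294: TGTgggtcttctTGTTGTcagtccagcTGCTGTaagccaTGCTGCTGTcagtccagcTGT
Krtap5-1, A_66_P135018: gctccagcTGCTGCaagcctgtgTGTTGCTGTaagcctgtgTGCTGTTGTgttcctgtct
Krtap19-4, A_55_P2151209: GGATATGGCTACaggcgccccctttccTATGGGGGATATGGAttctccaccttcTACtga

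The Gm11595 probe A_55_P1963573 and the Krtap4-16 probe end in a stop codon and therefore read the last codons of the frame, with 7 cysteine codons each among 20. The Gm11595 probe A_55_P1963576 holds 8 cysteine codons. Both Krtap5-5 probes shown hold 9, as does the Krtap5-5 probe A_55_P2060011, which is not shown. Pairs of adjacent cysteine codons recur every few codons in these sequences.

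Over the whole array, spots well above background rose from 58.8% with no treatment to 62.8% with control siRNA, 71.5% with Rif1 siRNA for 48 h and 74.1% for 72 h, and the lowest level that counted as well above background fell from 0.0236 to 0.0159, 0.00779 and 0.00543 in the same order. A probe can therefore become detected on the Rif1 siRNA arrays with no higher level. No member spot was flagged as an outlier and none of the 43020 spots of any array was saturated. Rif1 itself, the targeted gene, had a level of 5.55 without treatment, 5.42 with the control siRNA, 2.15 with Rif1 siRNA for 48 h and 4.15 for 72 h, so its transcript was lower at the earlier time than at the later one. Of the 9 probes for the ES cell markers Pou5f1, Sox2, Nanog, Zfp42, Esrrb and Klf4, none differed over 2-fold between either Rif1 siRNA array and control siRNA, and 8 or 9 were well above background on each array.

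On each array the share of member probes that were detected was smaller than that of all probes, a difference given without a test. Well above background were 23 of 70 member probes without treatment (32.9%), 29 with control siRNA (41.4%), 36 at 48 h after Rif1 siRNA (51.4%) and 37 at 72 h (52.9%). Over all 39429 probes the shares were 58.2%, 62.2%, 70.9% and 73.5%. In all, 33 member probes were dim on every array and 22 were well above background on every array. By gene, 26 of 56 had no probe above background on any array, and 18 had a probe above background on all 4 arrays.

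The genes with no detected probe lay on chromosomes 1, 10, 11 and 16. They included both genes of chromosome 1 (Krtap28-10 and Krtap28-13), Krtap12-1 on chromosome 10, the Krtap3 genes (Krtap3-1, Krtap3-2 and Krtap3-3), Krtap1-3, Krtap1-5, Krtap2-4 and Krtap17-1 on chromosome 11, and Krtap7-1, Krtap11-1, Krtap13-1 and Krtap24-1 on chromosome 16. Where a probe was dim, its level only reflects the background of its array, and these levels have no order between arrays.

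Fold changes were counted over the 27706 probes of the array that passed the filter on low values. Of the members, 36 of 70 probes passed it. A member that is detected only where it is high passes through that array, so the shares among those that passed are a description. At 72 h, 8 member probes of 7 genes were over 2-fold higher than with control siRNA and 0 were over 2-fold lower. In all probes that passed, 2.83% were higher and 1.00% lower. At 48 h, 7 member probes were higher and 0 lower, against 3.17% and 1.19% of all. All 7 of them were among the 8 of 72 h. The 2 times share the control siRNA array, which was taken at 72 h. Differences at 48 h therefore also hold a difference in time, which cannot be told apart from that of the siRNA. Because 5 of the 8 probes belong to genes selected on this difference, nothing was read from these counts about the family. Among the 31 probes with the Krtap symbol that passed the filter, 3 were over 2-fold higher at 72 h and 2 at 48 h.

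The members did not move as a block. Of the 29 member probes measured on both arrays at 72 h, 14 were higher and 15 lower than with control siRNA, and their median difference was -0.01, beside -0.07 over all 24312 measured probes of the array. Without the 4 genes selected for being higher, 10 probes were higher and 15 lower, with a median of -0.14. At 48 h the median was 0.02, beside -0.07 over all.

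Between control siRNA and untreated cells, 0 member probes were over 2-fold higher and 1 was lower, against 0.585% and 1.03% of all probes. Against untreated cells, 7 member probes were over 2-fold higher at 72 h and 1 lower (2.54% and 1.44% of all), and 7 were higher and 0 lower at 48 h (2.74% and 1.35% of all). With the untreated array, 3 of the 7 at either time are lower bounds, since the probe was not well above background there.

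**Figure D1:**
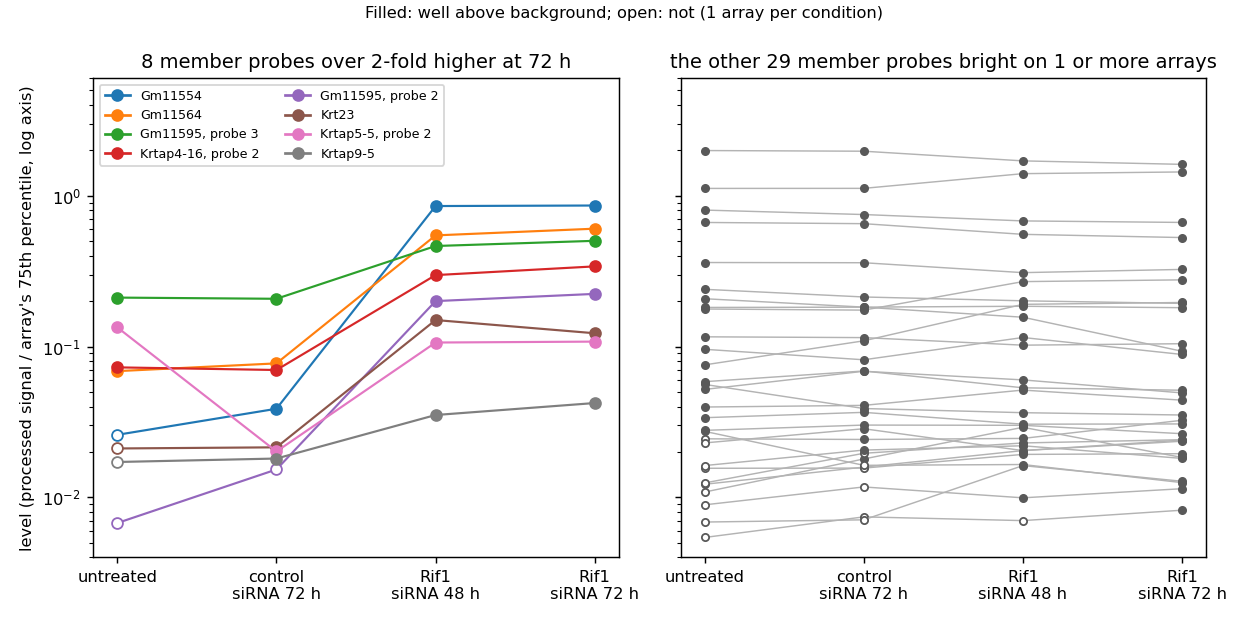
Levels of member probes on the 4 arrays (processed signal over the 75th percentile of its array, log axis), with 1 line per probe; filled points are well above background and open points are not. On the left, 7 of the 8 probes that passed 2-fold at 72 h lie above both arrays without Rif1 siRNA at both times. Krtap5-5 falls only on the control siRNA array. Of the 8 probes, 5 belong to genes selected on this difference. On the right, the other 29 probes bright on 1 or more arrays stay within 2-fold of control siRNA or have no measured difference.

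The largest measured difference among the members, lower bounds aside, was that of Gm11554, a protein-coding gene of the Krtap4 group. Its probe (A_55_P2097181; mm9 chromosome 11, 99659500 to 99659559, minus strand) had a level of 0.0260 in untreated cells, where it was not well above background, 0.0387 with control siRNA, 0.855 with Rif1 siRNA for 48 h and 0.862 for 72 h. The level was 22.1-fold higher at 48 h and 22.3-fold higher at 72 h than with control siRNA. With normexp background correction, which compresses low signals, the log2 difference at 72 h fell from 4.48 to 3.33. The array lists this probe under transcripts of 3 genes, Gm11554, Gm11569 and Krtap4-13, so the value cannot be assigned to 1 of them.

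Gm11564 had levels of 0.0688, 0.0774, 0.546 and 0.605 in the order untreated, control siRNA, 48 h and 72 h (chromosome 11, 99676467 to 99676526). It was 7.06-fold higher at 48 h and 7.82-fold higher at 72 h than with control siRNA. The gene was selected on this difference, and each level comes from 1 array.

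Gm11595 was read by 3 probes that differed in their outcome. The probe at the end of the frame (A_55_P1963573; 99633297 to 99633356) was not well above background in untreated cells or with control siRNA (0.00676 and 0.0153) and had levels of 0.200 and 0.224 at 48 h and 72 h. It was at least 12.6-fold higher at 48 h and at least 14.1-fold higher at 72 h, a log2 difference of 3.82 that fell to 2.11 with normexp. The array also lists this probe under Gm11596. The probe within the repeats (A_55_P1963576; 99633580 to 99633639) was detected on every array, with levels of 0.211, 0.208, 0.465 and 0.503, and was 2.24-fold and 2.42-fold higher. With normexp it was just under 2-fold at 48 h (log2 0.99). The remaining probe, A_55_P2153126, holds no cysteine-rich frame and was dim on all 4 arrays.

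Krtap4-16 was read by 2 probes. The probe shown above (99712278 to 99712337) had levels of 0.0728, 0.0700, 0.298 and 0.340, and was 4.26-fold higher at 48 h and 4.87-fold higher at 72 h than with control siRNA (log2 2.28, and 1.68 with normexp). The other, A_51_P172424, was dim on every array. The rise of Krtap4-16 therefore rests on the probe at the end of its frame.

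Krt23 lies at the edge of the cluster, 72.1 kb from the nearest keratin-associated protein probe (chromosome 11, 99339393 to 99339452). Its level was 0.0211 in untreated cells, not well above background, 0.0215 with control siRNA, 0.150 at 48 h and 0.123 at 72 h. It was 6.99-fold higher at 48 h and 5.71-fold higher at 72 h. With normexp, the log2 differences fell from 2.80 to 1.59 and from 2.51 to 1.34. Unlike the preceding genes, its level was higher at the earlier time, although with 1 array per time this order has no error.

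Krtap9-5 was higher only past the threshold at 72 h. Its levels were 0.0172 (dim), 0.0181, 0.0352 and 0.0422, a difference of 1.94-fold at 48 h and 2.33-fold at 72 h from control siRNA. With normexp it was under 2-fold at 72 h (log2 0.38). Against untreated cells it was at least 1.49-fold and at least 1.79-fold higher.

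Krtap5-5 on chromosome 7 requires its 4 arrays side by side. Its probe A_55_P2098150 (149415298 to 149415357) had levels of 0.134 without treatment, 0.0202 with control siRNA, 0.106 at 48 h and 0.108 at 72 h. It was 5.28-fold and 5.36-fold higher than with control siRNA (log2 2.42 at 72 h, and 1.12 with normexp), but it was 6.65-fold lower with control siRNA than in untreated cells, so Rif1 siRNA stayed below the untreated level, with a log2 difference of -0.31 at 72 h. The pixels of this spot varied by 47.0% of its mean signal (SD) on the untreated array, the highest value there among the 22 member probes detected on every array, whose median was 14.9%. On the control siRNA array the value was 21.8%. Whether 1 of these spots misread the level was not tested. The probe A_55_P1985294, which shares a run of 32 bases with it, had levels of 0.0122 and 0.0159 (both dim), 0.0204 and 0.0240, a rise of at least 1.51-fold at 72 h. The remaining probes of the gene differed from control siRNA by -0.14 each on the log2 scale.

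The other Krtap5 genes lay between. The array lists the Krtap5-1 probe also under Gm4559, the detected Krtap5-2 probe also under Krtap5-5 and the Krtap5-3 probe also under Krtap5-2, so their values cannot be assigned to single genes. Krtap5-1 had levels of 0.0756, 0.109, 0.191 and 0.196, which is 1.80-fold over control siRNA and 2.59-fold over untreated cells at 72 h. With normexp it was under 2-fold over untreated cells at both times. Krtap5-2 had levels of 0.178, 0.175, 0.270 and 0.277 (1.59-fold over control siRNA at 72 h), and Krtap5-3 had 0.208, 0.183, 0.185 and 0.181. Krtap5-4 was detected only on the Rif1 siRNA arrays, with a lower bound of 1.23-fold at 72 h.

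By position, most of the higher members lay in 1 stretch of chromosome 11, which follows in part from the choice of members. Of the 5 higher probes there, 4 belong to Gm11595, Gm11554 and Gm11564, which were selected on this difference. Of the 3 higher probes with the Krtap symbol, Krtap4-16 lay in the stretch, Krtap9-5 outside it and Krtap5-5 on chromosome 7. The members of this chromosome comprised 27 probes of 24 genes over 515 kb, and 7 of the 8 probes higher at 72 h were here. Apart from Krt23 and Krtap9-5, these lay within 79.3 kb that run from Gm11595 to Krtap4-16. This stretch held 9 member probes. Of these, 5 were higher, another probe each of Gm11595 and Krtap4-16 was dim on all arrays, and Krtap4-8 and Krtap4-9 stayed under 2-fold. Krtap4-8, next to Gm11595, had levels of 1.12, 1.12, 1.40 and 1.44 (1.29-fold at 72 h), and Krtap4-9 had 0.0109 (dim), 0.0180, 0.0292 and 0.0184 (1.62-fold at 48 h and 1.02-fold at 72 h). Between Krt23 and Gm11595, 10 of 12 member probes were dim on all 4 arrays, and the other pair, Krtap1-4 and Krtap4-1, had log2 differences of -0.42 and -0.48 at 72 h.

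**Figure D2:**
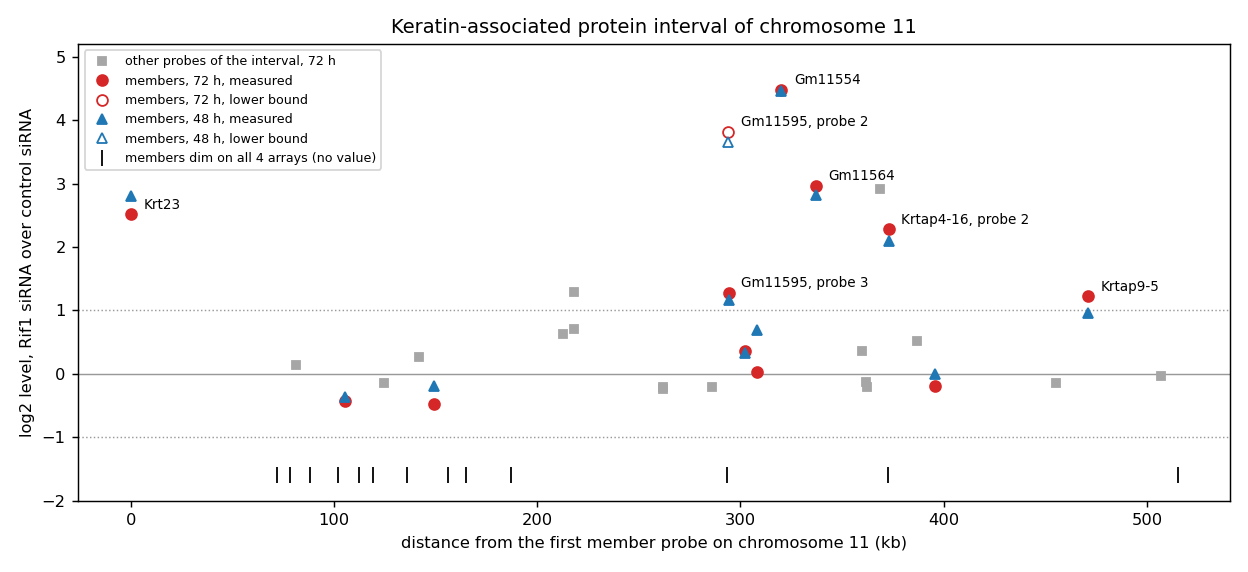
Log2 difference in level between Rif1 siRNA and control siRNA along chromosome 11, by distance in kb from the Krt23 probe, for members at 72 h (circles) and 48 h (triangles), other probes of the interval at 72 h (squares) and members dim on all arrays (ticks); open symbols are lower bounds and dotted lines mark 2-fold. The differences above 2 lie at Krt23 and between Gm11595 and Krtap4-16, where Gm11554 reaches 4.48. Probes of a gene are numbered by position, so that for Gm11595 probe 2 is A_55_P1963573, at the end of the frame, and probe 3 is A_55_P1963576.

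The members on chromosomes 10 and 16 differed from this. On chromosome 16, which holds the glycine- and tyrosine-rich genes among others, 29 probes of 22 genes spread over 959 kb. At 72 h, 10 of them were measured on both arrays, 7 lower and 3 higher than with control siRNA, with a median log2 difference of -0.22, and 0 were over 2-fold different. Krtap19-4 had levels of 2.00, 1.98, 1.70 and 1.62. Krtap19-5, a related glycine- and tyrosine-rich gene, was read by 2 probes. One had levels of 0.666, 0.653, 0.555 and 0.529, and the other, A_55_P2065754, had 0.182, 0.183, 0.157 and 0.0931. The second was 1.96-fold lower at 72 h and lay just under the threshold, whereas at 48 h it was near control siRNA. Krtap20-2 was read by several probes, of which A_55_P2070940 had levels of 0.361, 0.360, 0.309 and 0.325. Krtap26-1 had the highest measured difference of the chromosome (0.42 on the log2 scale at 72 h). On chromosome 10, Krtap10-4 had levels of 0.116, 0.115, 0.102 and 0.105, and Krtap10-10 had 0.804, 0.751, 0.681 and 0.666, with log2 differences of -0.13 and -0.17 at 72 h. At 72 h of Rif1 siRNA, the only member over 2-fold lower than in untreated cells was Krtap15, with levels of 0.0274, 0.0163 (dim), 0.0165 and 0.0125. It was under 2-fold lower with normexp, and with quantile normalization Krtap19-5 was also over 2-fold lower.

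Several members came up as detected on the Rif1 siRNA arrays without a measurable rise. At 72 h, 8 member probes were well above background that were not so with control siRNA. One of them, the Gm11595 probe at the end of the frame, had a lower bound over 2-fold, 3 had bounds under 2-fold, and for 4 no bound above 1 could be given. Krtap31-1 is an example, with a level of 0.0117 with control siRNA (dim) and 0.0114 at 72 h (detected). The rise in the number of detected members from 29 to 37 is therefore not a count of genes that went up.

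**Figure D3:**
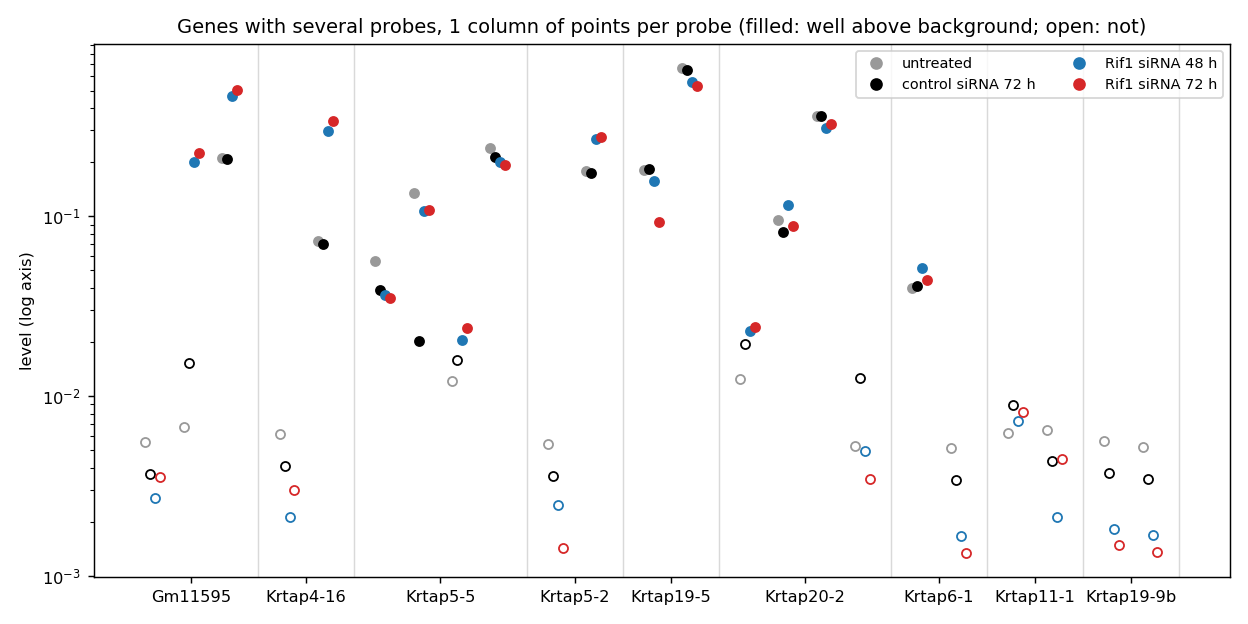
Levels of the 9 genes that have several probes on the 4 arrays (log axis), with 1 cluster of points per probe in order of position; filled points are well above background and open points are not. For 5 of the 9 genes, 1 probe is dim on every array beside another that is detected, as for Gm11595 and Krtap4-16.

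Probes of 1 gene often disagreed. Of 9 genes with several probes, 5 (Gm11595, Krtap4-16, Krtap5-2, Krtap6-1 and Krtap20-2) had a probe dim on every array beside a probe that was detected. The detected and dim probes differed in sequence. Of the 14 member probes with a frame of at least 5 cysteine codons, 0 were dim on all arrays and 11 were detected on all 4. Of the 10 with a frame of at least 8 glycine or tyrosine codons, 1 was dim on all arrays. Of the 46 with neither, 32 were. The median GC content was 55.0% in the first class, 54.2% in the second and 38.3% in the third.

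The dependence on base composition was larger in the members than over the array. At 72 h, 20% of the 25 member probes with GC under 40% were well above background, 44.4% of the 18 with GC from 40 to under 50%, and 88.9% of the 27 with GC of 50% or more. Over all probes the shares were 67.9%, 73.7% and 86.3%. At high GC the members were thus detected about as often as other probes, and at low GC less often. No test was made of this difference, and probes of related genes share sequence. Cysteine-rich frames also occur in probes that are not members. Of 172 other probes of the array with such a frame that passed the filter, 9 (5.23%) were over 2-fold higher at 72 h, and 4 of these 9 lie inside the clusters of the members. In members it was 6 of 14, of which 3 belong to genes selected on this difference.

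**Figure D4:**
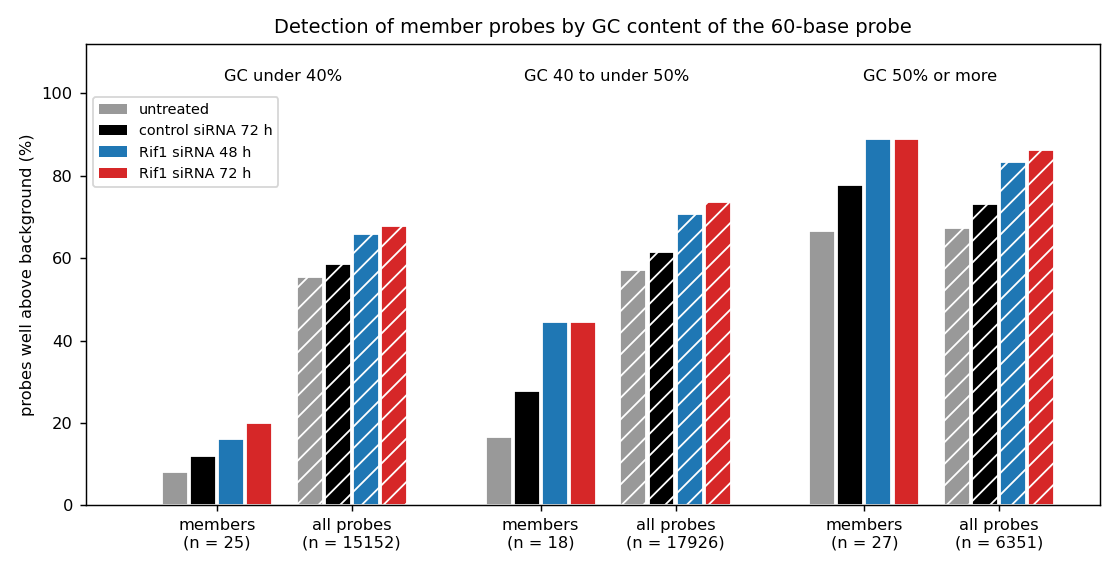
Share of probes well above background on each array (bars, %) by the GC content of the probe, for members (plain) and all probes of the array (hatched), with the number of probes below. Members with GC under 40% reach 20% at 72 h against 67.9% for all probes, whereas with GC of 50% or more the shares are 88.9% and 86.3%.

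Shared sequence between probes was counted as common words of 16 bases. Of the 70 member probes, 18 shared such a word with another probe of the array, and 13 of them with another member. None was found for the probes of Gm11554, Krt23, Krtap4-16 and Krtap9-5 or for the Gm11595 probe at the end of the frame. Only probes were compared, not transcripts, so this does not show that a probe read 1 gene. The array lists the Gm11554 probe under 3 genes and this Gm11595 probe also under Gm11596. The Gm11595 probe within the repeats shares 21 bases with Krtap4-8, which rose less (1.29-fold at 72 h). The Gm11564 probe shares 20 bases with the probe NAP057945-1, which lies between Gm11564 and Krtap4-16. NAP057945-1 had levels of 0.0690, 0.0779, 0.541 and 0.586. It was 7.52-fold higher than with control siRNA at 72 h, beside 7.82-fold for the Gm11564 probe. Which of the 2 transcripts each probe read cannot be told apart here.

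The Krtap5-5 probe A_55_P2098150 shared words with 8 other probes, and these differed in their outcome. Those on chromosome 7 include Krtap5-2 (0.67 on the log2 scale at 72 h), A_55_P1986471 (1.73), ENSMUST00000084413 (1.49) and LOC101055855 (-0.19). Binding of related transcripts to 1 probe was not tested.

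The sequence before the starts of chromosome 11 genes with a higher probe was compared. Of the 5 genes shown, 4 were selected on their difference, so that they were higher together follows from the choice. RefSeq promoters (GRCm38.p6) were at hand for 50 of the 56 members by symbol. The 120 bases before the start are shown, on the strand of the gene, for the chromosome 11 genes with a probe higher at both times. Capitals mark TATAAA, the core of the TATA box, and AACAATAAC. These letters were chosen after the sequences had been seen. The coordinates are of GRCm38.p6, unlike the mm9 positions of the probes. The array lists the Gm11554 probe also under Gm11569 and Krtap4-13, and the Gm11595 probe at the end of the frame also under Gm11596. Whether these probes read the transcripts of the promoters shown was not tested.

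Gm11554, chr11:99804447-99804566, minus strand: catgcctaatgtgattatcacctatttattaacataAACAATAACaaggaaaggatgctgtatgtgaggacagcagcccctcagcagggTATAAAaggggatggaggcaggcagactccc
Gm11564, chr11:99815667-99815786, minus strand: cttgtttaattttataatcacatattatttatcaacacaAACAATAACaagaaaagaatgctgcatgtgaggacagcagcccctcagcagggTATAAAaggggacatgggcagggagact
Gm11595, chr11:99772914-99773033, minus strand: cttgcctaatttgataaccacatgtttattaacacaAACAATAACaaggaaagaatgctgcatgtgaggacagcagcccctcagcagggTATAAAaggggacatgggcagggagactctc
Krtap4-16, chr11:99851606-99851725, minus strand: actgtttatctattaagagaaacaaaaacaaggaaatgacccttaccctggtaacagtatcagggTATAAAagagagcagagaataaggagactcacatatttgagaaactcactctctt
Krt23, chr11:99493121-99493240, minus strand: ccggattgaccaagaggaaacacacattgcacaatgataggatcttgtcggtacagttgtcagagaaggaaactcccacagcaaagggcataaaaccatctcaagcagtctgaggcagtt

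The 3 Gm genes had similar promoters. Gm11554 and Gm11595 were identical at 105 of 120 bases (87.5%), and Gm11564 at 86.3% to Gm11595 and 78.6% to Gm11554 when shifted by 3 bases. Krtap4-16 was less alike (46.2% to Gm11595), and so was Krt23 (31.9%). TATAAA was present on either strand within these 120 bases in 40 of the 50 member promoters (80.0%), all on the strand of the gene, and in 6.34% of all 32851 promoters of the table. AACAATAAC was present in 6 of 50 member promoters (Gm11554, Gm11564, Gm11595, Krtap4-6, Krtap4-9 and Krtap20-2) and in 0.116% of all. Krtap4-6, Krtap4-9 and Krtap20-2, which have it too, were not over 2-fold higher, and Krtap4-6 was dim on all arrays. Krt23 has neither in this window.

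Genes of the hair and skin that are not members were read as a check of the cell type. The hair keratins, the filament partners of these proteins, stayed within 2-fold of control siRNA where measured. Of 17 probes for 13 genes (Krt31 to Krt36 and Krt81 to Krt86), 0 were over 2-fold higher at 72 h or at 48 h, 5 were detected with control siRNA and 9 at 72 h, and Krt33b, Krt34, Krt35, Krt82, Krt83 and Krt84 were dim on every array. The 2 detected probes of Krt85 had levels of 0.520 and 0.221 with control siRNA and 0.5155 and 0.1975 at 72 h. Between control siRNA and untreated cells, 1 probe was over 2-fold lower, that of Krt36 (A_55_P2165439), with levels of 0.0438, 0.00528 (dim), 0.00660 (dim) and 0.00679. Of 8 probes for hair follicle regulators, 0 differed over 2-fold. These include Hoxc13, a regulator of hair keratin genes, with levels of 0.0450, 0.0631, 0.0525 and 0.0560, while Foxn1 was dim on every array.

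A few genes of other epithelial lists did rise. Of 13 probes for inner root sheath and companion layer genes, 3 were over 2-fold higher at 72 h and 2 at 48 h. Over all probes that passed the filter, 2.83% were higher at 72 h and 3.17% at 48 h, and no test was made of these lists. Tchh, which encodes trichohyalin of the inner root sheath, had levels of 0.111, 0.0966, 0.60 and 0.370, and Gata3, a transcription factor of many epithelia, had 0.0674, 0.0518, 0.186 and 0.148. Krt72 was at least 2.97-fold higher at 72 h only. Of 19 probes for epidermal genes, 1 was higher at 72 h and 2 at 48 h, all of Trp63, a master regulator of stratified epithelium. The 4 Trp63 probes disagreed. A_55_P2161055 had levels of 1.51, 1.53, 10.7 and 12.5, A_55_P1952056 had 0.0120 (dim), 0.0179, 0.0469 and 0.0171, and the other pair was dim on every array. Of the others, Lor, which encodes loricrin of the cornified envelope, was nearest to the threshold, with levels of 0.295, 0.175, 0.302 and 0.304, and 1 of 2 Krt10 probes was at least 1.53-fold higher at 72 h. The detected probe of Krt5 and that of Krt14, keratins of the basal epidermis, differed by 0.08 and 0.01 on the log2 scale. In the list of simple epithelium and trophoblast, Cdx2 was 2.11-fold higher at 72 h and Krt20 2.44-fold higher at 48 h, out of 9 probes. The part of these genes in the differences of the 8 higher member probes was not tested. In bulk RNA, a change in the number of cells of a type and a change in RNA per cell cannot be told apart.

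Among genes listed as beside the clusters, Sod1 and Tiam1 on chromosome 16 and Smarce1 on chromosome 11 stayed within 2-fold of control siRNA. Krt39 and Krt40 of this list lie inside the member interval of chromosome 11. Of 30 probes for 21 of the 22 listed genes, 19 were detected with control siRNA and 23 at 72 h. Cldn8, Grik1, Krt39 and Krt40 were dim on every array. At 72 h, 0 probes were over 2-fold different, against 2.83% higher and 1.00% lower over all probes that passed the filter. At 48 h, 1 was higher, that of Krt20 (2.44-fold, and 1.85-fold at 72 h), against 3.17% and 1.19% over all. No test was made of this list.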

How the data were processed

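RNA of 4 samples was measured on Agilent one-color arrays, 1 per condition. The authors ran Feature Extraction 11.5.1.1 with default settings, and the deposited files give a background-subtracted, detrended processed signal as an intensity, with mm9 probe positions. The authors also deposited a normalized ratio to the 75th percentile, linear, which equaled the processed signal divided by a constant per array.

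Here levels were the processed signal over the 75th percentile of the non-control spots. Outlier spots were left out and the 10 spots of repeated probes averaged. Probes entered the counts when they reached the 20th percentile of an array at least once and were detected or flagged as compromised on at least 2 arrays. A dim probe was set to the higher of its own level and the lowest level well above background of its array, which gives a lower bound. For 22 member probes detected on all arrays, the software's error model gave a median of 10.0% to 11.2% of the signal, which covers the spot and not the cells.

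The members and lists were chosen with earlier results of these data known. Named were the 4 added genes, every member over 2-fold different at both times, the 10 with the highest level at 72 h, members that differed between control siRNA and untreated cells, and the listed markers; other names were chosen after the values were seen. The planned split by protein sequence was not run, and reading frames of the probes were used in its place. By accession, 68 of 70 member probes matched RefSeq genes. The probe named Krtap16-1 on the array matched Krtap19-2 there, and 6 probes list transcripts of several genes. The steps were tested on simulated data. Python 3.11.15 with pandas 2.3.3 and numpy 2.4.6 was used, and R 4.3.3 with limma 3.58.1 for the alternatives.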

Additional observations from a re-analysis of the deposited data

Results flagged for a closer look

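Probes that are not members but lie inside the clusters are outside the counts of members above, and 5 were over 2-fold higher than with control siRNA. The intervals held 6 such probes on chromosome 7 (3 passed the filter), 8 on chromosome 10 (7 passed), 29 on chromosome 11 (18 passed) and 32 on chromosome 16 (15 passed). Over all probes that passed the filter, 2.83% were higher at 72 h. On chromosome 11, NAP057945-1 was 7.52-fold higher at 72 h (log2 2.91) and A_55_P2164503 was 2.45-fold higher, with levels of 0.120, 0.108, 0.25 and 0.264 in the order untreated, control siRNA, 48 h and 72 h. On chromosome 7, A_55_P1986471 was 3.33-fold higher (levels 0.0332, 0.0344, 0.0969 and 0.115) and ENSMUST00000084413 was 2.81-fold higher (0.0311, 0.0286, 0.0836 and 0.0804). These 4 hold cysteine-rich frames and rose at both times. Other probes of the intervals with such a frame were not over 2-fold higher, for example Gm4559 and Gm2696 (log2 -0.085 and -0.189 at 72 h). On chromosome 16, 2310057N15Rik was at least 7.66-fold higher at 72 h and was dim on the other arrays, so it did not pass the filter on low values. No other probe of the intervals on chromosomes 7, 10, 11 and 16 was over 2-fold higher.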

How the results depend on the processing

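Of 104 alternative values for the counts, medians and detected probes, 90 stayed within the limits, which were 1.5 times for counts and the SD of the difference between control siRNA and untreated cells over all probes (0.256 on the log2 scale, not a replicate SD) for values. The counts of members over 2-fold higher at 72 h and 48 h were among these. This held with the deposited ratios, quantile normalization, outlier spots kept, 4-fold, no lower bounds, no filter or untreated cells as the control. The deposited ratios are the same signals over a practically equal divisor, and no member spot was an outlier. Neither of these settings could therefore move the member values, yet both are counted among the 90. Normexp background correction with an offset of 50, which compresses low signals, moved the median log2 difference of the members to -0.15 at 72 h and -0.11 at 48 h, removed Krtap9-5 at 72 h (log2 0.38) and the Gm11595 probe within the repeats at 48 h, and raised their median level to 0.0570, 0.0568, 0.0502 and 0.0472 from 0.00759, 0.0122, 0.0131 and 0.0120. Over the whole array it lowered the counts of higher and lower probes at 72 h from 783 and 278 to 416 and 117. With a positive and significant signal in place of the stricter flag, 39 and 44 members were detected in untreated and control siRNA cells in place of 23 and 29. Members over 2-fold lower at 72 h became 1 with quantile normalization (Krtap19-5) and 1 against untreated cells (Krtap15). Against untreated cells, the members lower at 72 h went from 1 to 0 with normexp or at 4-fold and to 2 with quantile normalization, and the 7 higher members fell to 4 at each time without lower bounds and to 6 at 72 h (Krtap5-1 lost) and 5 at 48 h (Krtap5-1 and the Gm11595 probe within the repeats lost) with normexp. Without the Krtap5-5 probe A_55_P2098150, an alternative added after the data were seen, 0 members were lower with control siRNA than in untreated cells. Alternatives to the counts of lower members, to the counts of Rif1 siRNA over untreated cells and to single probe values were also not planned. No paired analysis was possible because only 1 array was run for a condition, which also meant that none could be left out. The split by protein sequence was not run.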
